A study of Mus musculus with 20 samples.

Results

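Potassium channel genes carry symbols that start with Kcn in the mouse. The count table analysed here held 93 genes with such a symbol, of which 89 were protein-coding, and 67 of these 89 reached at least 10 counts in at least 3 of the 20 libraries. Those 67 genes are described here, among 25317 gene identifiers in all. They comprised 15 of the 17 pore subunits of the Kv1 to Kv4 types, 8 of the 10 electrically silent subunits, 11 of the 13 pore subunits of the KCNQ and EAG types, 7 of the 8 calcium- or sodium-activated pore subunits, 9 of the 13 inward rectifiers, 7 of the 13 two-pore-domain leak channels and 10 of the 14 auxiliary subunits. Kcng2, a silent subunit, lay just inside the rule with 10 counts or more in 8 libraries. Just outside it lay Kcne3, Kcnj14 and Kcnk6, each in 2 libraries, with largest counts of 12, 17 and 10. Kcnj8, the vascular inward rectifier, reached 10 counts in 1 library only, and Kcnn4 in 0.

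The study measured RNA from the cortex of 3-month-old C57BL/6 mice that were wild type or carried a heterozygous deletion of Foxp2, a forkhead transcription factor. Ribosomes were pulled down with an antibody against GFP (BacTRAP), and the RNA bound to them is called IP. Input is the RNA of the same animal's lysate, taken just before the pull-down. Hemispheres had been freed of diencephalon, basal ganglia, hippocampus and the rostral tip. Each library came from 1 animal: 5 wild-type animals (wt734, wt736, wt785, wtBT13 and wtBT14) and 3 heterozygous animals (het729, het786 and hetBT13) gave both fractions. Values per animal are listed in that order below. A further 4 libraries from 2 heterozygous animals (het730 and hetBT14) are titled IX or IXX and labelled Input, have no IP, and enter only where they are named. The same pull-down was applied in both genotypes, and neither the cells that carry the GFP tag nor the driver of the cortical deletion is given in the sources used here.

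Potassium channels let potassium leave a neuron and thereby repolarise it and set its resting potential. Voltage-gated pore subunits assemble as tetramers around a central pore, silent subunits form such tetramers only together with other subunits, and two-pore-domain channels carry a pair of pore loops in 1 chain. Auxiliary subunits (the KChIP, Kv-beta, KCNE and BK-beta proteins) do not line the pore and alter the surface level and gating of the channels they bind.

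All 57 pore-forming genes share a stretch of sequence that the auxiliary subunits lack. It is the run of codons for the selectivity filter, searched as serine or threonine, any residue, glycine, tyrosine or phenylalanine, glycine in the GENCODE coding sequences (GRCm38/mm10). It was found in 57 of 57 pore-forming genes, in 0 of 10 auxiliary genes and in 503 of 17386 protein-coding genes (2.89%). Among the two-pore-domain genes 6 of 7 held it at least 2 times. The sequences below, with these codons in capitals, come from genes of 6 pore classes whose values are given further on.
Kcna1: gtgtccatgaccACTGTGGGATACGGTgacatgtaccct
Kcnc2: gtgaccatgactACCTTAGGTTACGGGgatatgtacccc
Kcns1: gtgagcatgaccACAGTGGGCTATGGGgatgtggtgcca
Kcnh3: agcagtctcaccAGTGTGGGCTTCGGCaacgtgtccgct
Kcnt2: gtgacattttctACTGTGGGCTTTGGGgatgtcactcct
Kcnj3: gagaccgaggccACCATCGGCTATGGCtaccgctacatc
Kcnk1: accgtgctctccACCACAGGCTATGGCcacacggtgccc

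The capitals lie in exon 2 of Kcna1 (chr6:126642228-126642242, minus strand), exon 3 of Kcnc2 (chr10:112456229-112456243, plus) and exon 4 of Kcns1 (chr2:164164854-164164868, minus). They lie in exon 8 of Kcnh3 (chr15:99232929-99232943, plus), in exon 9 of Kcnt2 (chr1:140425278-140425292, plus) and exon 2 of Kcnj3 (chr2:55437627-55437641, plus). In Kcnk1 the codons span the junction of exons 1 and 2 (chr8:125995808-126025019, plus). Auxiliary subunits were also the shorter genes, with coding sequences of 429 to 1212 bases (median 780) against 1008 to 3726 bases (median 1743) for the pore-forming genes.

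Library totals ran from 4061562 to 5754169 counts in wild-type IP, 4917886 to 5337469 in heterozygous IP, 3391291 to 3934152 in wild-type Input and 2782934 to 4072270 in heterozygous Input. The 67 channel genes took 0.333% to 0.354% of counts in wild-type IP and 0.286% to 0.315% in wild-type Input. In heterozygotes they took 0.324% to 0.334% in IP and 0.269% to 0.289% in Input. Mitochondrial genes took 0.398% of counts in the IP of het729 and 0.0616% to 0.127% in the other IP libraries. Foxp2 stood at 69.5 ± 21.2 CPM (CPM, counts relative to library size after TMM scaling, as mean ± SD) in wild-type IP (n = 5) and 46.5 ± 12.9 in heterozygous IP (n = 3). In Input it stood at 47.0 ± 10.8 and 27.8 ± 3.51 CPM, and neither genotype difference passed edgeR's quasi-likelihood test (log2 -0.59, adjusted p = 0.981, and -0.76, adjusted p = 0.501).

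Levels were compared between channel genes per kilobase of exon. In wild-type Input the highest level belonged to Kcnip3, a calcium-binding KChIP subunit of Kv4 channels, at 79.1 ± 10.8 CPM per kb (SD, n = 5). Kcnk1, a two-pore-domain leak channel, followed at 78.5 ± 7.07 CPM per kb, and these neighbours differed by less than their spread. Kcnip4, another KChIP, stood at 51.8 ± 4.56 CPM per kb, apart from both. Kcnab2, a Kv-beta subunit, followed at 38.5 ± 6.75, Kcnip2 at 37.1 ± 4.82 and Kcna1, an axonal Kv1 pore subunit, at 33.6 ± 3.46 CPM per kb, which did not differ from each other beyond their spread. Kcnab3 and Kcnab1, further Kv-beta subunits, stood at 30.7 ± 2.24 and 30.6 ± 3.53 CPM per kb. Of the 10 highest members 6 were auxiliary and 4 pore-forming. The lowest level belonged to Kcnn3, a small-conductance calcium-activated channel, at 0.206 ± 0.0961 CPM per kb.

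**Figure D1:**
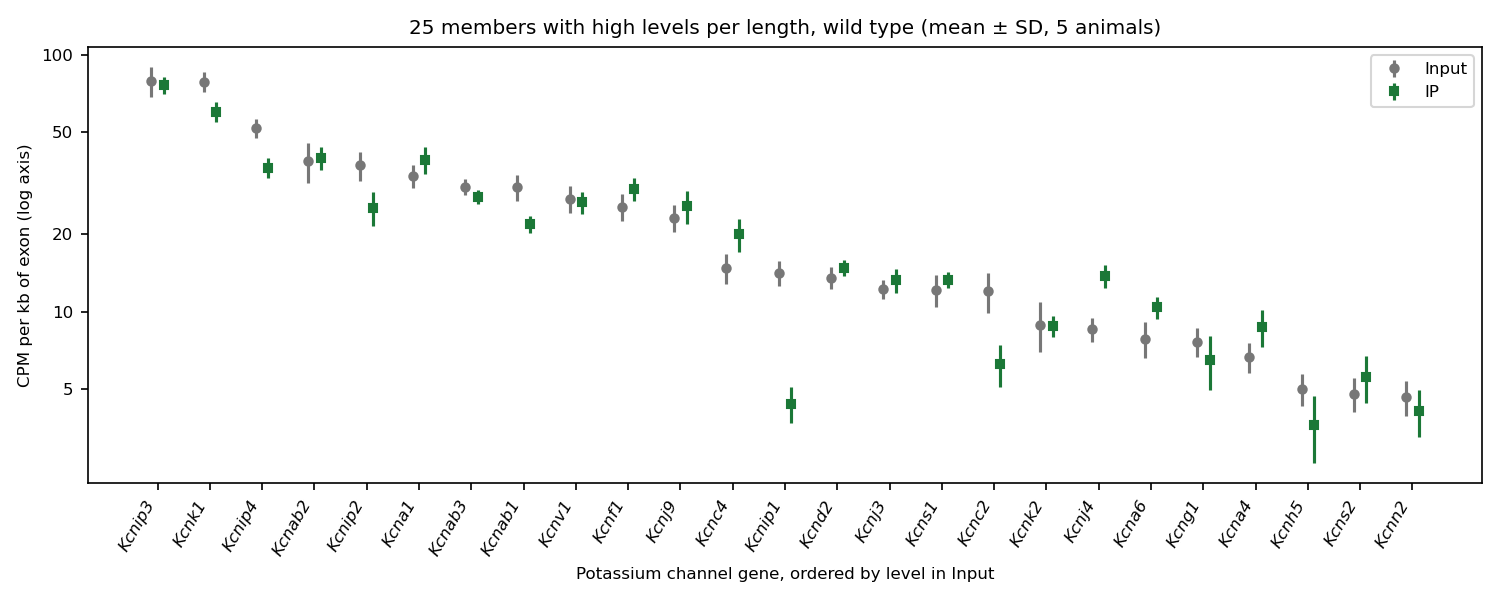
Level per kilobase of exon (CPM per kb, log axis) of 25 channel genes with high wild-type Input levels, in Input and IP of 5 wild-type animals (mean ± SD). Kcnip3 and Kcnk1 lead in both fractions, at 79.1 and 78.5 CPM per kb in Input and 76.3 and 60.1 in IP.

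The first comparison asked which channel transcripts were more or less abundant on the tagged ribosomes than in the lysate of wild-type animals. Of the 67 members 33 differed at an adjusted p below 0.05 (edgeR quasi-likelihood test, animal as a block), 17 higher and 16 lower in IP. That is 49.3% of the members, while 54.1% of all 14797 genes tested were called, 28.5% higher and 25.6% lower, so the family's share lay near the background. The members' median log2 difference was 0.11 and that of all genes 0.03. With upper-quartile scaling 11 members were higher and 18 lower (37.9% of calls higher, against 51.5% here). In bulk samples fewer cells of a type and less RNA per cell cannot be told apart.

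**Figure D2:**
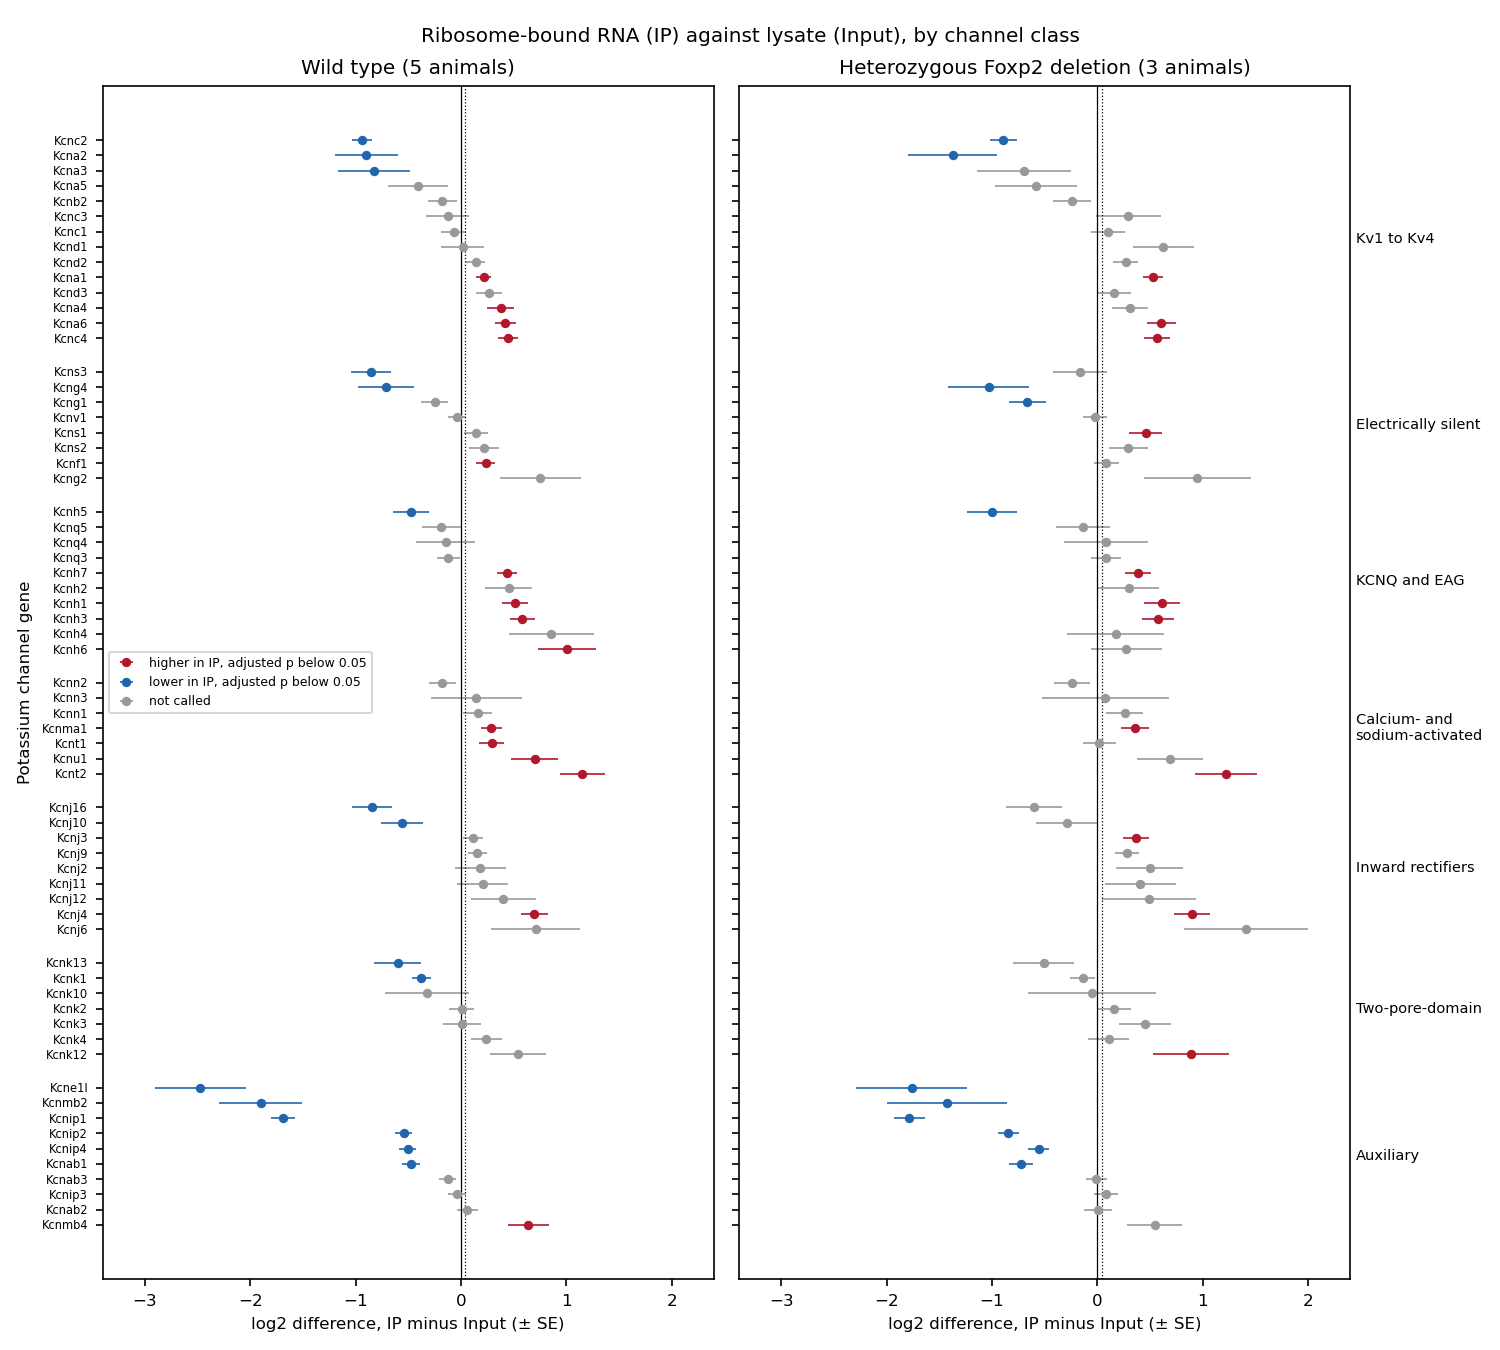
Log2 difference between IP and Input (± SE) of channel genes by class, in 5 wild-type animals (left) and 3 heterozygotes (right). Red points were higher and blue points lower in IP at an adjusted p below 0.05, grey points were not called, and the dotted line is the median of all genes; 6 of 10 auxiliary genes are blue in each genotype.

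Auxiliary subunits were mostly lower in IP: 6 of 10 were called lower and 1 higher, with a median log2 difference of -0.49. Kcnip1 (chr11:33629339-33993152, minus strand), a KChIP known from interneurons, stood at 31.9, 21.0, 26.5, 25.9 and 30.6 CPM in the IP of the 5 wild-type animals and at 85.5, 76.7, 83.0, 103 and 91.2 CPM in their Input. Every Input value lay far above every IP value. The log2 difference was -1.69 (SE 0.11, adjusted p = 1.16e-10).

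Kcnip2, the KChIP of A-type currents, stood at 107, 85.4, 86.9, 91.9 and 70.2 CPM in IP and at 148, 141, 123, 127 and 105 CPM in Input. The highest IP value reached above the lowest Input value. The log2 difference was -0.54 (SE 0.08, adjusted p = 4.25e-06). Kcnip4 was lower by a similar size (131.9 ± 12.2 CPM in IP, 188 ± 16.6 in Input, log2 -0.51, adjusted p = 1.02e-05), as was Kcnab1 (188.3 ± 14.8 and 262.8 ± 30.4 CPM, log2 -0.47, adjusted p = 7.71e-05). Kcnip3, the most abundant member per length, was not called (270.5 ± 20.4 and 280.4 ± 38.1 CPM, log2 -0.04, adjusted p = 0.729).

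The auxiliary genes Kcne1l and Kcnmb2 had the most negative log2 differences of all members at a low level. Kcne1l, a KCNE-type subunit on the X chromosome, stood at 0.334, 1.25, 0.417, 0.443 and 0.367 CPM in IP and at 3.77, 2.65, 3.16, 4.73 and 2.53 CPM in Input (log2 -2.47, SE 0.43, adjusted p = 5.41e-05). Kcnmb2, a BK-beta subunit that gives BK channels inactivation, stood at 1.40 ± 0.759 and 5.33 ± 1.40 CPM (log2 -1.90, adjusted p = 0.000333). The fractions did not overlap for either gene. Kcnmb4, the neuronal BK-beta subunit, was the auxiliary gene called higher (9.08 ± 0.886 CPM in IP, 5.86 ± 1.2 in Input, log2 0.64, adjusted p = 0.00807).

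Pore-forming genes were called higher in 16 and lower in 10 of 57 cases, with a median of 0.16. With upper-quartile scaling these counts were 10 and 11 and the median was 0.07. Among the Kv1 to Kv4 subunits 5 were higher and 3 lower of 15, with a median of 0.02. With upper-quartile scaling 2 were higher and 3 lower (median -0.07), and with DESeq2 3 were higher and 2 lower (median -0.01).

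The Kv3 subunits of fast-spiking cells split. Kcnc2 (chr10:112271121-112467024, plus strand) stood at 43.2, 50.2, 32.1, 44.3 and 53.4 CPM in IP and at 79.9, 84.7, 66.4, 88.8 and 109 CPM in Input. The fractions did not overlap, and the log2 difference was -0.93 (SE 0.09, adjusted p = 4.70e-08). Kcnc4, a Kv3 subunit with fast inactivation, was higher in IP (73.5 ± 10.9 and 54.2 ± 7.13 CPM, log2 0.44, adjusted p = 0.000466). Kcnc1 was not called (33.5 ± 7.26 and 35.3 ± 9.15 CPM, log2 -0.07, adjusted p = 0.652).

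Kv1 subunits split as well. Kcna1 (chr6:126640397-126646384, minus strand) stood at 210, 203, 191, 172 and 156 CPM in IP and at 179, 172, 161, 136 and 156 CPM in Input. The IP and Input ranges overlapped, and IP was level with Input in wtBT14 and above it in the other animals. The log2 difference was 0.22 (SE 0.07, adjusted p = 0.0147), and the call was lost with DESeq2, with upper-quartile scaling and without wt785 or wtBT13 (adjusted p = 0.0541 and 0.0569 by edgeR). Kcna6 was higher (61.8 ± 6.14 and 46.6 ± 7.46 CPM, log2 0.42, adjusted p = 0.00137). Kcna2, the common axonal partner of Kcna1, was lower at a low level (2.64 ± 0.824 and 4.91 ± 1.15 CPM, log2 -0.90, adjusted p = 0.0141, and 0.0576 without wtBT14). Kcnd2, the Kv4 pore subunit that KChIPs bind, was not called (76.5 ± 5.72 and 69.8 ± 6.74 CPM, log2 0.14, adjusted p = 0.201).

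Of the 8 silent subunits 1 was higher and 2 were lower, with a median of 0.05 that turned to -0.04 with upper-quartile scaling. Kcns3 stood at 4.84, 8.26, 8.13, 7.31 and 4.03 CPM in IP and at 12.1, 11.7, 12.1, 11.1 and 11.1 CPM in Input. Its fractions did not overlap, and the log2 difference was -0.85 (SE 0.19, adjusted p = 0.000739). Kcnf1, the most abundant silent subunit, was called higher (143.5 ± 14.6 and 122.6 ± 14.6 CPM, log2 0.23, adjusted p = 0.0337), a call lost with DESeq2, under both other scalings and without wt734, wt736, wt785 or wtBT13 (adjusted p = 0.0572 to 0.156).

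KCNQ and EAG pore subunits were called higher in 5 and lower in 1 of 11 cases, counts that held with DESeq2 and both other scalings, with a median of 0.45. Kcnq3, a subunit of M-current channels, was not called (54.2 ± 8.54 and 59.2 ± 10.1 CPM, log2 -0.12, adjusted p = 0.363).

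Of the EAG genes Kcnh3 stood at 53.0, 33.7, 37.1, 38.3 and 36.5 CPM in IP and at 32.5, 30.3, 24.4, 24.8 and 20.6 CPM in Input. All IP values lay above all Input values, with wt734 highest in both fractions (log2 0.58, SE 0.12, adjusted p = 0.000236). Kcnh1 was higher by log2 0.51 (38.5 ± 5.95 and 26.9 ± 3.62 CPM, adjusted p = 0.00177), while Kcnh5, the closest relative of Kcnh1, was called lower by log2 -0.47 (14.7 ± 4.29 and 20.3 ± 2.89 CPM, adjusted p = 0.0212). The Kcnh5 call was lost without wtBT14 (log2 -0.26, adjusted p = 0.167), whose own log2 ratio was -1.37 against -0.47 to 0.02 in the other wild types.

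Of the 7 calcium- or sodium-activated pore subunits 4 were higher and 0 lower, with a median of 0.29, and 2 were higher with upper-quartile scaling or with DESeq2. Kcnt2 (chr1:140246158-140612067, plus strand), a sodium-activated channel, stood at 20.9, 18.4, 19.0, 12.6 and 13.9 CPM in IP and at 11.0, 4.51, 7.47, 4.73 and 11.4 CPM in Input. The fractions did not overlap, and its log2 difference of 1.15 (SE 0.21, adjusted p = 9.68e-05) was the most positive among the members. Kcnu1, a relative of the BK channel best known from sperm, was also higher (9.26 ± 3.5 and 5.55 ± 0.611 CPM, log2 0.70, adjusted p = 0.0104, but 0.0609 without wt736 and 0.0648 without wtBT14). Kcnma1, the BK channel pore, was higher by log2 0.29 (65.3 ± 10.8 and 53.5 ± 6.36 CPM, adjusted p = 0.0199), a call lost with DESeq2, with upper-quartile scaling and without wt734 (0.0836) or wtBT13 (0.109).

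Inward rectifiers gave 1 higher and 2 lower calls of 9, with a median of 0.18. Kcnj4 (chr15:79483714-79505241, minus strand), a Kir2 channel of forebrain neurons, stood at 32.7, 26.8, 32.7, 29.7 and 26.4 CPM in IP and at 21.2, 18.8, 15.8, 18.4 and 17.4 CPM in Input. The fractions did not overlap, and the log2 difference was 0.70 (SE 0.13, adjusted p = 0.000102). The genes called lower were Kcnj10, the astrocyte Kir4.1 channel (8.83 ± 2.90 and 12.9 ± 4.17 CPM, log2 -0.56, adjusted p = 0.0238), and its partner Kcnj16 (7.44 ± 2.73 and 13.1 ± 1.77 CPM, log2 -0.84, adjusted p = 0.000892). The Kcnj10 call was lost without wt734 (adjusted p = 0.109), without wt736 (0.135) and without the animal as a block (0.0665). Kcnj9, a GIRK subunit and the most abundant inward rectifier, was not called (110.7 ± 16.4 and 99.4 ± 11.8 CPM, log2 0.16, adjusted p = 0.127).

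Two-pore-domain channels gave 0 higher and 2 lower calls of 7, with a median of 0.01 that turned to -0.08 with upper-quartile scaling and to -0.02 with DESeq2's scaling. Kcnk1 (chr8:125995170-126030685, plus strand) stood at 138, 148, 142, 120 and 124 CPM in IP and at 183, 159, 175, 198 and 162 CPM in Input. The fractions did not overlap, and the log2 difference was -0.38 (SE 0.09, adjusted p = 0.00119). Kcnk13, known from microglia and other non-neuronal cells, was the other gene called lower (log2 -0.60, adjusted p = 0.027). Its call was lost without wt734 (adjusted p = 0.0823), wt736 (0.109) or wtBT13 (0.0984) and without the animal as a block (0.0624).

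**Figure D3:**
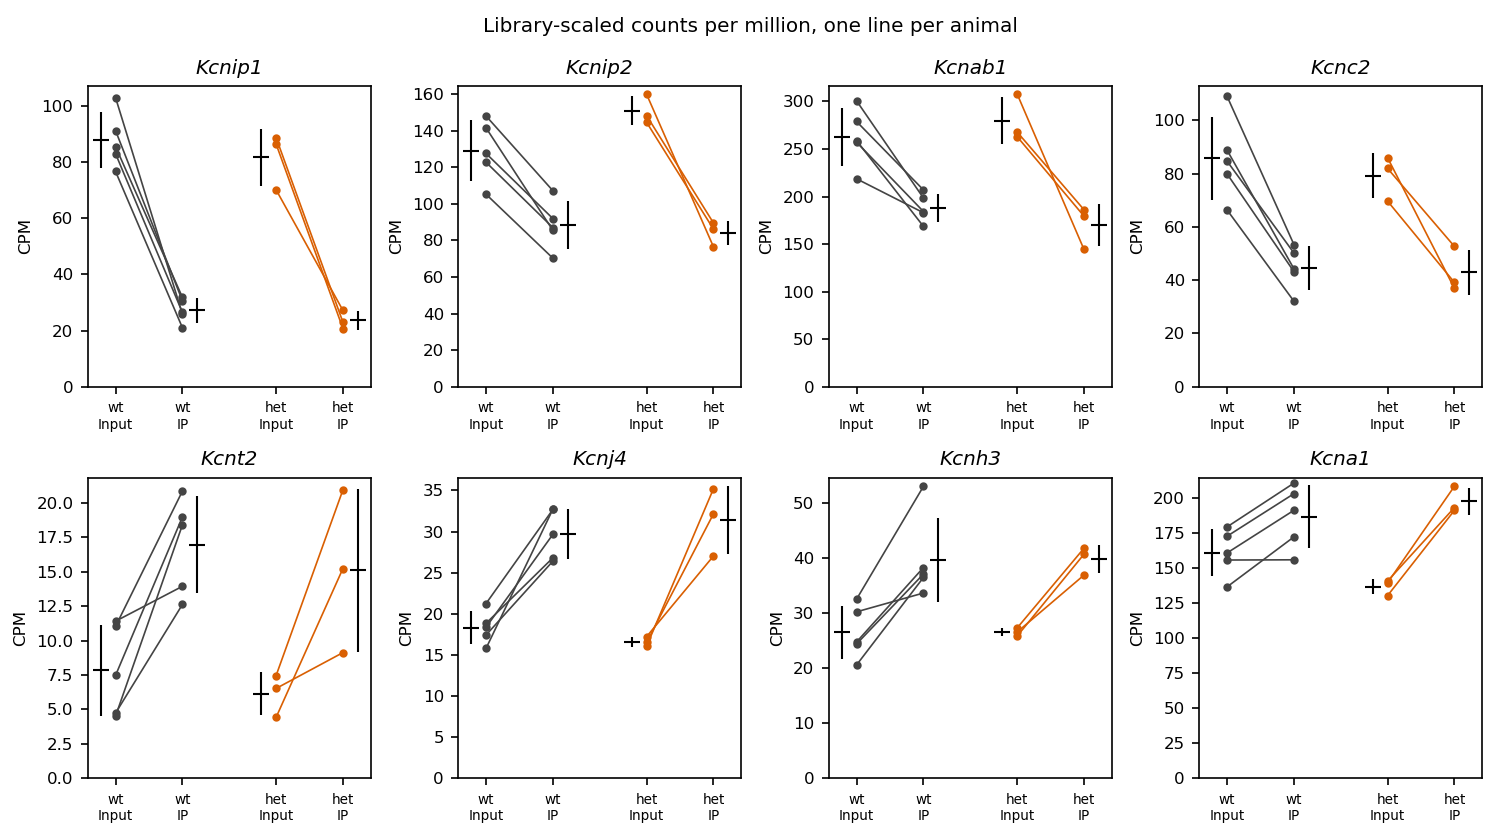
Level (CPM) of 8 channel genes in Input and IP of each animal, wild type (n = 5) and heterozygous (n = 3). Lines join the fractions of 1 animal and bars give the mean ± SD; Kcnip1 falls from 87.9 CPM in wild-type Input to 27.2 in IP, while Kcnt2 stands at 7.83 and 17.0 CPM.

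Cell type markers differed between the fractions alongside these channel genes. Interneuron markers were lower in IP in 7 of 7 cases (median log2 -1.80), with a summed level of 487 to 645 CPM in wild-type IP and 1080 to 1198 CPM in wild-type Input. Of the 4 channel genes listed as known from fast-spiking interneurons, Kcnc2, Kcns3 and Kcnmb2 were lower and Kcnc1 was not called. In heterozygotes edgeR called Kcnc2 and Kcnmb2 lower, and neither Kcns3 (log2 -0.17, adjusted p = 0.624) nor Kcnc1 was called. The heterozygous Kcnmb2 call (adjusted p = 0.0471) was lost under 5 of 14 alternatives that tested it. Astrocyte markers were lower in 7 of 8 cases (570 to 774 CPM in IP, 954 to 1434 in Input), and all 3 tested channel genes listed for glia, microglia, vessels or choroid plexus (Kcnj10, Kcnj16 and Kcnk13) were called lower, with summed levels of 16.7 to 30.4 CPM in IP and 34.5 to 47.9 CPM in Input over the 7 listed. As given above, the calls of Kcnj10 and Kcnk13 were lost without single animals, and in heterozygotes 0 of the 3 were called by edgeR (adjusted p = 0.429, 0.0668 and 0.157). Glutamatergic markers were higher in 4 of 5 cases. Of the layer 6 markers Ntsr1 had the largest difference, at 38.6 ± 4.34 CPM in IP and 4.54 ± 0.799 in Input (log2 3.09). Tle4 (log2 1.23) and Nxph4 (1.15) were also called higher. Foxp2 (log2 0.56, adjusted p = 0.0701) and Syt6 (0.50, 0.0508) were not called by edgeR, nor was Nxph4 in heterozygotes (adjusted p = 0.241). General neuron markers were lower in 5 of 5 cases, oligodendrocyte markers in 6 of 7 and striatal markers in 6 of 6. No marker list was at 0, and the part of these cell types in the channel differences was not tested.

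Coding length also moved with the IP difference. Across 12524 genes Spearman's rho between coding length and the wild-type log2 difference was 0.34, and across the 67 members it was 0.41. Genes are not independent replicates, and the members share the 10 libraries behind every point. Among the 57 pore-forming genes alone rho was 0.31, and in heterozygous IP it was 0.064 over these genes, 0.27 over all members and 0.29 over all genes. All 8 members with at least 3000 coding bases lay above 0, 6 of them called higher, where 54.7% of the 1778 genes of that length were called higher and the median of those genes was 0.46. The 12 members with 2000 to 3000 coding bases had a median of -0.12, with 7 below 0. The median of all 2037 genes of that length was 0.26. Of these 12 members 4 were called higher and 1 lower, where 41.9% and 12.5% of the genes of that length were. Of the 6 members with 500 to 1000 coding bases 4 were called lower and 1 higher, where 34.7% of 2817 genes were called lower with a median of -0.08. The part of length in the difference between pore-forming and auxiliary genes was not tested.

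**Figure D4:**
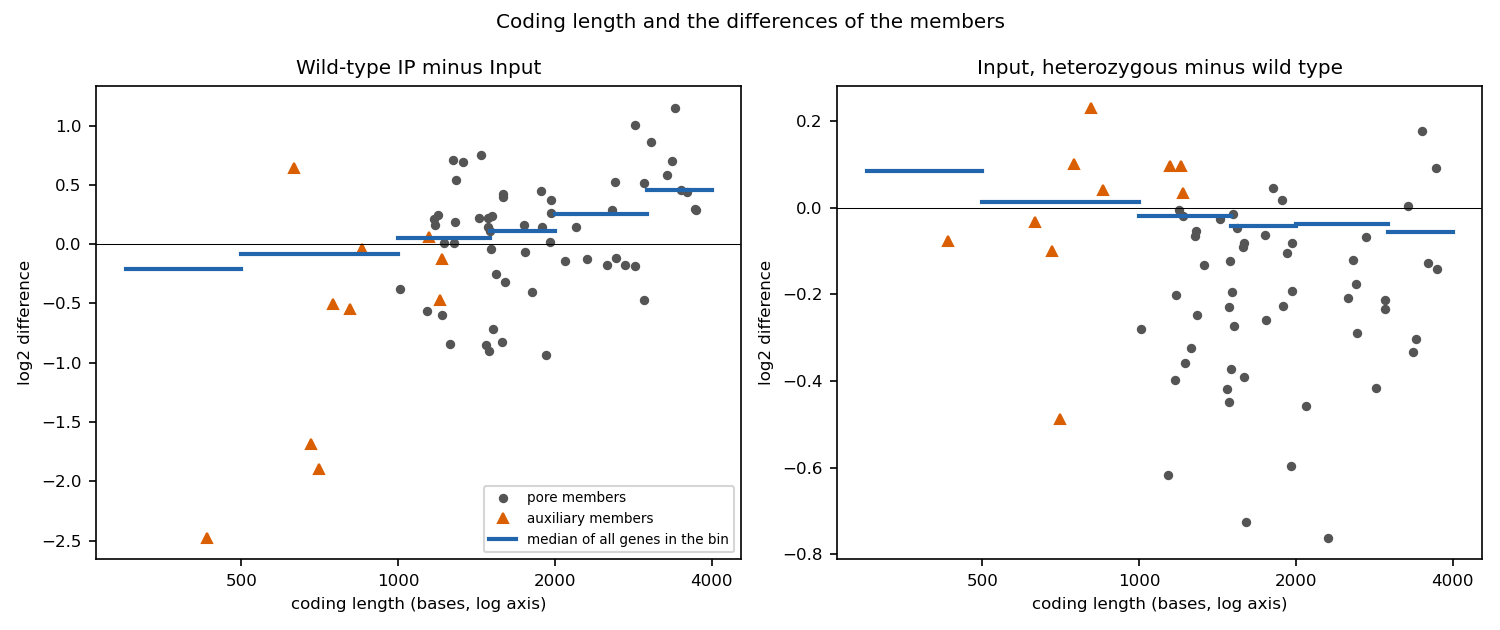
Log2 difference of the channel genes against coding length (bases, log axis): wild-type IP minus Input on the left, heterozygous minus wild-type Input on the right. Points are members and blue bars are medians of all genes in a length range, which run from -0.21 below 500 bases to 0.46 at 3000 bases or more on the left.

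In heterozygotes 24 of 67 members differed between IP and Input, 13 higher and 11 lower. That is 35.8%, against 44.8% of all genes tested (22.6% higher, 22.1% lower), with a median of 0.16 against 0.04. With upper-quartile scaling 8 were higher and 12 lower (against 13 of 24 higher here), and with DESeq2 8 and 11 (42.1% of calls higher, against 54.2%). Called in both genotypes in the same direction were 20 members (29.9%), 10 higher and 10 lower. Of all genes tested 39.3% were so called, 19.8% higher and 19.5% lower. Kcnip1 stood at 27.2, 20.8 and 23.0 CPM in IP and 70.2, 86.5 and 88.8 CPM in Input (log2 -1.79, SE 0.15, adjusted p = 1.14e-08). Kcnc2 stood at 52.7, 39.1 and 36.9 CPM in IP and 81.9, 69.7 and 85.9 CPM in Input (log2 -0.89, adjusted p = 7.17e-06). These genes were named for having 1 direction in all 8 animals, so their direction in heterozygotes is a description.

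Auxiliary subunits were again called lower in 6 of 10 cases and higher in 0, with a median of -0.64. KCNQ and EAG pore subunits were called higher in 4 and lower in 1 of 11 cases, with a median of 0.27. With DESeq2 or upper-quartile scaling 3 of them were higher and 1 lower (median 0.23 and 0.18). Kcnj4 (31.5 ± 4.13 and 16.6 ± 0.581 CPM, log2 0.90, adjusted p = 0.00022) and Kcnt2 (15.1 ± 5.91 and 6.13 ± 1.55 CPM, log2 1.22, adjusted p = 0.00202) were called higher in IP, and their direction was likewise fixed by the naming rule. Called in heterozygotes and not in wild types were Kcng1, Kcnj3, Kcnk12 and Kcns1, and 13 members were called in wild types and not in heterozygotes. The Kcnk12 call (adjusted p = 0.0497) was lost under 13 of 14 alternatives that tested it. Those of Kcnj3 and Kcns1 were lost with DESeq2 and upper-quartile scaling, that of Kcnj3 also without hetBT13 (adjusted p = 0.218) and that of Kcns1 without het729 (0.0736) or het786 (0.188). Kcng1 was also called lower in wild types with upper-quartile scaling (adjusted p = 0.0314) and without wtBT13 (0.0416).

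The difference of the IP effect between genotypes was tested directly. By edgeR 0 of 67 members and 0 of 14797 genes (0%) passed at an adjusted p below 0.05, and DESeq2 and limma-voom also called 0 members. At an unadjusted p below 0.05 edgeR had 3 members, DESeq2 2 and voom 3, where 3.07% of all genes reached it by edgeR. The 3 were Kcna1 (log2 0.22 in wild types and 0.53 in heterozygotes), Kcnip2 (-0.54 and -0.85) and Kcns3 (-0.85 and -0.17), each with an adjusted p of 1 from edgeR. Kcna1 stood at 191, 208 and 193 CPM in heterozygous IP and 130, 139 and 141 CPM in heterozygous Input, without overlap.

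Proteins that bind potassium channels but have other symbols were followed as a list of 20, of which 17 were tested. In wild-type animals 9 were higher and 1 was lower in IP, with a median of 0.28. Of all genes tested 28.5% were called higher and 25.6% lower, with a median of 0.03. Dpp10, a Kv4 auxiliary protein, was higher (126.8 ± 14.3 and 81.1 ± 6.01 CPM, log2 0.64, adjusted p = 1.23e-06), as were Ank3, the ankyrin of the axon initial segment (log2 0.67, adjusted p = 3.62e-06), and Lrrc55, a BK gamma subunit (log2 0.90, adjusted p = 1.69e-05). Vapa, an endoplasmic reticulum protein that binds voltage-gated potassium channels, was lower (333.2 ± 15.4 and 681.4 ± 31.8 CPM, log2 -1.03, adjusted p = 7.01e-09). In heterozygotes 7 were higher and 2 lower, where 22.6% and 22.1% of all genes were. The second gene called lower was Lrrc38, another BK gamma subunit (1.23 ± 1.82 CPM in IP, 4.43 ± 2.09 in Input, log2 -1.91, adjusted p = 0.026). The IP spread of Lrrc38 exceeded its mean, and edgeR did not call it in wild types (adjusted p = 0.0511). Between genotypes 0 were called in either fraction by edgeR, DESeq2 or limma-voom. At an unadjusted p below 0.05 edgeR had 3 in each fraction, where 4.09% of all genes reached it in IP and 7.06% in Input.

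The comparison between genotypes asked whether channel transcripts changed with loss of 1 Foxp2 copy. In IP 66 members were tested and 0 passed edgeR's test, as did 0 of 14755 genes (0%). DESeq2 called 3 genes and limma-voom 0, with 0 members among them. By all 3 tools 2 members had an unadjusted p below 0.05, where 4.09% of all genes did by edgeR. These were Kcnh5 and Kcng1. Kcnh5 stood at 13.3, 13.7, 21.3, 15.7 and 9.54 CPM in wild-type IP and at 7.02, 9.0 and 10.3 CPM in heterozygous IP. The groups overlapped through wtBT14 (log2 -0.74, SE 0.25, adjusted p = 0.981). Kcng1 had a log2 difference of -0.49 (adjusted p = 0.981), also with overlap. Below 0 lay 45 of 66 members (68.2%, against 49.3% of all genes), with a median of -0.10 against 0.00. Among all genes with at least 1000 coding bases 51.8% to 66.9% per length range lay below 0. Without overlap between genotypes were 0 members, where 1.83% of all genes were so in the higher and 1.74% in the lower direction. The highest ranked members above 0 were Kcnip3 (log2 0.17), Kcnab3 (0.15) and Kcnc4 (0.14), each with an adjusted p of 0.981.

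In Input 62 members were tested. By edgeR 0 passed, as did 0 of 13870 genes (0%), and DESeq2 and limma-voom called 0 members. At an unadjusted p below 0.05 edgeR had 10 members, DESeq2 7 and voom 11, where 7.06% of all genes reached it by edgeR. Below 0 lay 51 of 62 members (82.3%, against 48.7% of all genes), with a median of -0.14 against 0.01. By coding length 17 of 20 members of 1000 to 1500 bases lay below 0, against 54.1% of all genes of that length. It was 16 of 18 at 1500 to 2000 (59.0%), 10 of 10 at 2000 to 3000 (58.9%) and 4 of 7 at 3000 or more (61.3%). Of the 6 members of 500 to 1000 bases 3 lay below 0 (46.6%), as did the 1 shorter member (29.0%). The pore-forming genes lay below 0 in 47 of 52 cases (median -0.20), and the auxiliary genes lay above 0 in 6 of 10 (median 0.04). These medians kept their signs with DESeq2 and with both other scalings. Lower in heterozygotes without overlap were 4 members, Kcnj3, Kcns1, Kcnk1 and Kcns3, where 2.88% of all genes were so, and 0 members were higher without overlap, where 2.42% of genes were. The 4 IX and IXX libraries were not part of these comparisons. As a share of counts, members took 0.267% and 0.285% in those of het730, below the wild-type Input range of 0.286% to 0.315%. In those of hetBT14 they took 0.310% and 0.292%, within that range.

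Kcnj3, the common subunit of GIRK channels, stood at 70.7, 67.7, 56.9, 64.0 and 60.5 CPM in wild-type Input and at 44.1, 55.4 and 48.2 CPM in heterozygous Input. All 3 heterozygotes lay below all wild types (log2 -0.37, SE 0.12, adjusted p = 0.634). The 4 IX and IXX libraries of the other heterozygotes stood at 73.0, 59.5, 61.8 and 60.5 CPM, the first above and the other 3 within the wild-type range. With them in the fit the log2 difference was -0.21. In IP Kcnj3 overlapped between genotypes (log2 -0.12, adjusted p = 0.981).

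Kcns1, a silent subunit, stood at 39.3, 26.5, 34.5, 34.0 and 31.0 CPM in wild-type Input and at 25.3, 22.4 and 24.5 CPM in heterozygous Input (log2 -0.45, SE 0.15, adjusted p = 0.642). Its IX and IXX libraries stood at 26.2, 25.8, 24.1 and 26.3 CPM. All 7 heterozygous Input libraries of Kcns1 thus lay below the lowest wild type, and with the 4 added the difference was -0.42. In IP its difference was -0.13 (adjusted p = 0.981).

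Kcnk1 stood at 183, 159, 175, 198 and 162 CPM in wild-type Input and at 137, 142 and 152 CPM in heterozygous Input (log2 -0.28, SE 0.10, adjusted p = 0.67). Its IX and IXX libraries stood at 150, 138, 193 and 194 CPM, those of het730 below and those of hetBT14 within the wild-type range. With the 4 added the difference was -0.18. Kcns3 stood at 12.1, 11.7, 12.1, 11.1 and 11.1 CPM in wild-type Input and at 8.61, 7.45 and 10.0 CPM in heterozygous Input (log2 -0.42, adjusted p = 0.695). Its IX and IXX libraries stood at 5.91 and 7.99 CPM in het730, below all wild types, and at 13.2 and 12.9 CPM in hetBT14, above all of them. In IP the difference of Kcns3 was 0.24 (adjusted p = 0.981), with overlap. Of the auxiliary genes Kcnip2 lay above 0 in Input (128.9 ± 16.8 CPM in wild types, 150.8 ± 8.01 in heterozygotes, log2 0.23, adjusted p = 0.696), with overlap. Kcnab1 and Kcnip4 each had a log2 difference of 0.10 (adjusted p = 0.853 and 0.855).

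**Figure D5:**
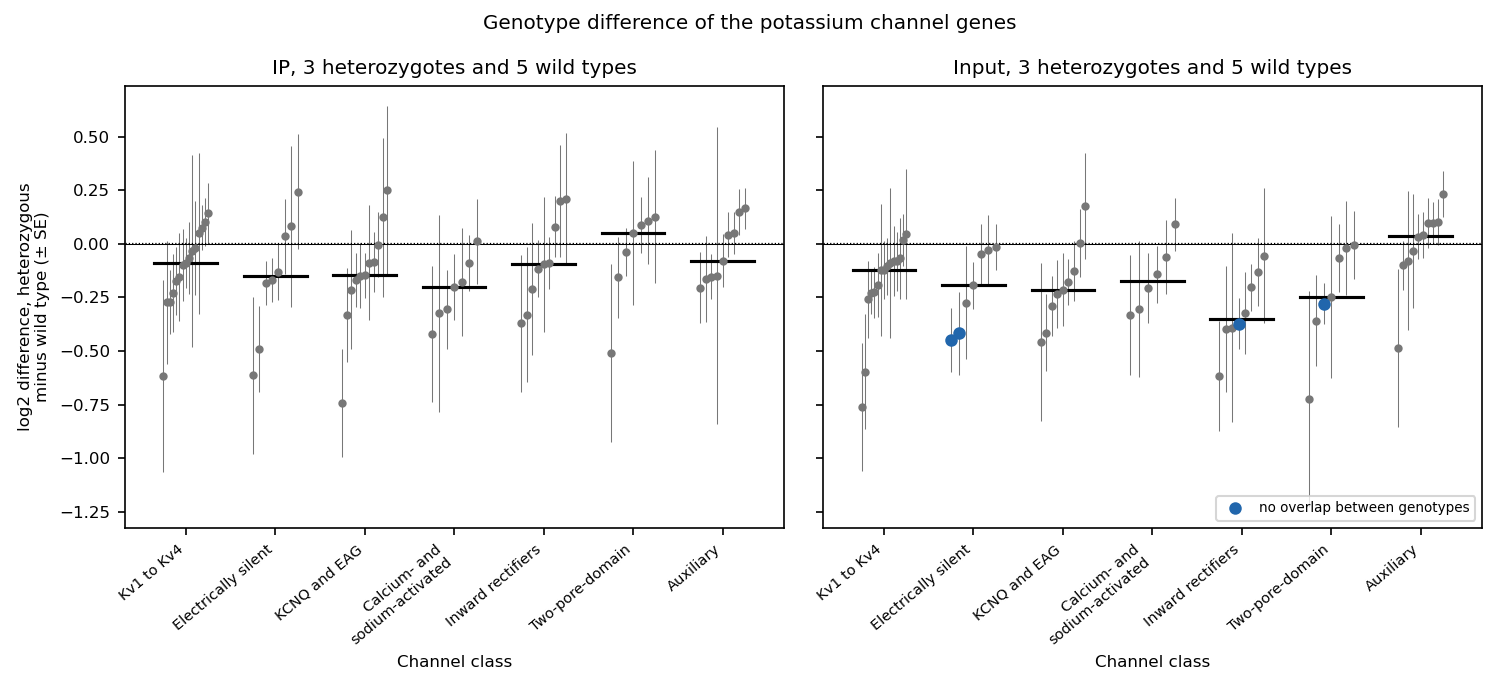
Log2 difference between heterozygotes and wild types (± SE) of the channel genes by class in IP (left, 66 genes) and Input (right, 62 genes). Horizontal bars are class medians and blue points the 4 genes without overlap between genotypes; no gene passed the adjusted test.

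Animal names take 2 forms, BT with a number or a number only, and the labels do not say what the forms mean. In Input the members' median was -0.09 among BT-named animals (1 heterozygote, 2 wild types) and -0.18 among the others (2 and 3). In IP the medians were -0.02 and -0.10. With the form as a covariate they were -0.16 in Input and -0.10 in IP, and edgeR called 0 members. Astrocyte markers had a median log2 difference between genotypes of -0.49 in Input and -0.52 in IP with 0 of 8 called by edgeR and 5 of 8 at an unadjusted p below 0.05 in each fraction. Their summed level was 822 to 904 CPM in heterozygous and 954 to 1434 CPM in wild-type Input, and the part of these in the channel values was not tested. Coding length had a rho of -0.18 with the Input difference over 11864 genes, of -0.15 over 62 members and of 0.11 over 52 pore-forming members. With the IP difference between genotypes rho was -0.24 over 12519 genes, -0.26 over 66 members and -0.26 over 57 pore-forming members. The part of length in these differences was not tested.

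Foxp2 binds forkhead motifs, so the RefSeq promoters (GRCm38.p6, 250 bases before to 50 after each start) were searched for 3 motifs of this type on both strands. At least 1 of them was in 11.84% of 32851 promoters and in 3 of the 71 promoters (4.23%) of the 48 members that matched. TATTTAT was in 5.6% of all promoters, TATTTGT in 3.63% and TGTTTAC in 3.65%. The matches of Kcnd2 and Kcnj16 are shown with the motif in capitals, and Kcnj16 holds TATTTAT on the opposite strand. They start 29 and 132 bases before the start sites.
Kcnd2: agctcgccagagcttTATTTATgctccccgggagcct
Kcnj16: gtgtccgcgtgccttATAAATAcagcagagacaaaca

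The motif of Kcnd2 lies at chr6:21215317-21215323 and that of Kcnj16 at chr11:111019453-111019459. Neither gene was called between genotypes in either fraction. A match is a description of these letters only.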

How the data were processed

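Smart-seq2 libraries of IP and Input RNA from 10 mice were analysed. Per the submitters' processing notes HTSeq and mm10 were used, and the table deposited by the authors holds unnormalized counts for each Ensembl identifier. The sources used here do not give the HTSeq version, the aligner, the gene annotation or the strand option. Smart-seq2 marks neither strand nor molecules, so overlapping genes cannot be told apart, and count errors cover counting only. 21 of the 67 members overlap another annotated gene, among them Kcnip1 (Kcnmb1), Kcnh1 (Hhat), Kcnh3 (Mcrs1), Kcnh7, Kcnip3, Kcnip4, Kcnab1, Kcna6, Kcnj3 and Kcnmb4 (antisense genes), and 10 of the 21 were called in wild types.

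Gene names came from GENCODE (24873 of 25317 identifiers, 444 unmatched). Counts were tested with edgeR 4.0.16 (R 4.3.3): filterByExpr with a count minimum of 10, TMM scaling, robust quasi-likelihood F tests, and Benjamini-Hochberg adjustment over all genes tested, with adjusted p below 0.05 called. IP and Input were fitted together over 16 libraries with the animal as a block, because the protocol takes both fractions from the lysate of 1 animal. Deviations of paired libraries correlated with r of 0.0545 to 0.217 over 14797 genes and of -0.0815 to 0.334 over the members. Genotypes were compared within each fraction, 3 against 5 animals. CPM are TMM-scaled, and log2 CPM used a prior count of 1. The tests were also run on simulated counts in which a small share of genes changed and animals had no effect. That run could not check the animal block, or the scaling where many genes differ.

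Alternatives were DESeq2 1.42.0, limma-voom (limma 3.58.1), RLE and upper-quartile scaling, 2 other filters, no block, the name form as covariate, the IX and IXX libraries, and leaving out each animal. Tables used Python 3.11.15, pandas 2.3.3 and numpy 2.4.6. The members and lists were chosen with earlier results of these data known. Named members were up to 8 with the largest called wild-type IP difference in each direction (8 higher and 7 lower met the rule: mean of at least 5 CPM over 16 libraries, same direction in all 8 animals), the 3 of smallest p in each direction between genotypes, the most abundant of each class, 13 chosen by function and those at the edge of the rule. Kcne1l, Kcnmb2, Kcnk13, Kcnk12, Kcnn3, Kcnab2, Kcna6 and those lacking overlap were named after their values were seen. Some members and sequences are counted but not reported here.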

Additional observations from a re-analysis of the deposited data

Results flagged for a closer look

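Each named member was checked for a single library far from the others of its wild-type group, in 68 groups of 5 over 34 members. Chance flags about 1 in 20 groups, and 2 of the 68 stood out. Kcnh3 stood at 53.0 CPM in the IP of wt734, against 33.7 to 38.3 CPM in the other wild-type IP libraries. Kcnmb4 stood at 3.73 CPM in the Input of wt785, against 6.19 to 6.63 CPM in the other wild-type Input libraries. Both genes were called higher in wild-type IP, and both calls held when each animal was left out in turn.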

How the results depend on the processing

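The count of members called in wild-type IP against Input was 26 to 33 over the alternatives and the count in heterozygotes 19 to 26. With upper-quartile scaling the members called higher numbered 11 in wild types and 8 in heterozygotes, where DESeq2 also gave 8, and the heterozygous median was 0.064. That scaling also turned the sign of Kcnf1 (-0.0075), Kcnip3 (-0.0083) and Kcnq3 (-0.011) in heterozygotes, none of them called. Leaving out 1 animal gave 27 to 33 wild-type calls (13 to 19 higher, 12 to 16 lower, median 0.05 to 0.13) and 20 to 26 heterozygous calls (10 to 15 higher, 8 to 11 lower, median 0.10 to 0.17), the lowest heterozygous median being without het729. The median between genotypes was -0.13 to -0.08 in IP and -0.21 to -0.13 in Input, with -0.21 without wtBT13. Members called between genotypes or for the difference of the IP effects stayed at 0 under every alternative run. Uncalled values that turned sign when 1 animal was left out were Kcnc1 (-0.15 to 0.016, the latter without wt736) and Kcnip3 (-0.074 to 0.036, without wtBT14) in wild-type IP, Kcnf1 (-0.049, without het729, to 0.21), Kcnip3 (-0.015, without het786, to 0.25) and Kcnk1 (-0.28 to 0.024, without hetBT13) in heterozygous IP, Kcnc4 between genotypes in IP (-0.0099, without het786, to 0.25) and Kcnip4 in Input (-0.012, without hetBT13, to 0.23). The cause was not tested. In heterozygotes the calls of Kcnma1 (adjusted p = 0.307 without het729, 0.109 without het786), Kcnh1 (0.126 without het729) and Kcna2 (0.0649 without het786, 0.0726 without hetBT13) were lost by edgeR. With no replicate block 30 wild-type calls (16 higher, 14 lower) and 21 heterozygous calls (11 and 10) were made, losing, among others, Kcnj10 and Kcnk13 in the former and Kcnk12, Kcnma1 and Kcnmb2 in the latter. Of 22 named members called in wild types 15 were called under every alternative that tested them, and of 14 in heterozygotes 11. These counts covered only part of the called members. Outside them, heterozygous calls were lost for Kcnk12 under 13 alternatives, Kcnmb2 under 5, Kcns1 under 4, Kcnj3 under 3 and Kcne1l under 2. For Kcng1 and Kcnh5 they were lost under 0. Wild-type calls outside them were lost for Kcnk13 under 4 and Kcnh5 under 1, and for Kcna6, Kcne1l and Kcnmb2 under 0. With 3 heterozygotes and totals of 2782934 to 5754169 counts, low members such as Kcne1l and Kcna2 rest on few counts.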
